A study of Mus musculus with 4 samples.

Results

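Accessible chromatin of fibro/adipogenic progenitors (FAPs) from young mdx mice was compared between 1 library made after trichostatin A (TSA) and 1 control library. The young TSA list held 80122 regions and the young control list 43335, together 123457 of the 308012 regions listed for the 4 libraries of the series. All of these regions entered the comparison. A region was assigned to a class by whether it overlapped a region of the other young list by at least 1 bp, which gave TSA-only regions, control-only regions and shared regions. No measured signal entered this assignment beyond the positions of the listed regions.

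FAPs are stromal progenitors of the spaces around muscle fibres. They signal to muscle stem cells during repair, and in dystrophic muscle they are a source of scar tissue and fat. TSA inhibits histone deacetylases, enzymes that remove acetyl groups from histone tails. Acetylated histones are found at active promoters and enhancers, where nucleosomes are looser and enzymes can reach the DNA. NA-seq measures that access by cutting the DNA of intact nuclei with a restriction enzyme and sequencing the ends.

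Both groups were C57BL/6 mdx mice, which carry no functional dystrophin. The TSA group, mdx_young_tsa, received daily TSA injections of 0.5 mg per kg over 15 days, and the control group, mdx_young_ctrl, received saline, although its treatment field reads none. Old mdx mice of the same strain, mdx_old_tsa and mdx_old_ctrl, had the same regimens and serve here as a second pair of libraries, with 87416 regions after TSA and 97139 in the control. The age in weeks, the sex and the number of mice behind a library are unknown here. Sorting of hind limb cells kept those that were Sca-1+ after exclusion of Ter119, CD45, CD31 and α7 integrin. Marker genes could not be looked up in these lists, because the gene positions at hand belong to GRCm38 while the files use mm9. Each list gives positions only, so the number of reads behind a region is unknown, and absence from a list means only that no region was called there. With 1 library per group no difference has an error between mice, and no p-value was computed. The intervals in parentheses are exact binomial 95% intervals (Clopper-Pearson). They reflect counting error only, with each region taken as an independent draw. Within the young pair the treatment and the length of the lists cannot be told apart, since the young TSA list is also the longer one.

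The young TSA library had 55629 regions with no counterpart in the control, or 69.4% of its list (69.1 to 69.7%). The control had 18617 regions with no counterpart after TSA, or 43.0% of its list (42.5 to 43.4%). The shared class held 24493 regions on the TSA side and 24718 on the control side. Joining overlapping regions gave 98513 merged regions, of which 56.5% were TSA-only, 24.6% shared and 18.9% control-only. Few regions lay at the very edge of the 1 bp rule. Among the shared TSA regions 156 (0.637%) overlapped the control by 100 bp at most, while 92.9% overlapped by at least 1000 bp. On the other side of the rule, 435 TSA-only regions (0.782%) and 306 control-only regions (1.64%) touched a region of the other list or lay within 100 bp of one. A much stricter rule moved more of them: with an overlap of at least 50% of both regions, 73.7% of the TSA list and 51.4% of the control list had no counterpart.

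The width of a region, which the class rule did not use directly, differed between the classes. TSA-only regions had a median width of 1600 bp (quartiles 1200 and 1900 bp) and control-only regions one of 1300 bp (1100 and 1700 bp). Shared regions were wider, with a median of 1900 bp on the TSA side and 1800 bp on the control side. Narrow regions of under 1500 bp made up 61.2% of the control-only class (60.5 to 61.9%) and 40.7% of the TSA-only class (40.3 to 41.1%). They made up 33.8% of shared regions as called in the control and 16.5% as called after TSA. Widths of exactly 1900 bp, the most frequent single width, were taken by 28.8% of TSA-only and 14.3% of control-only regions. A wide region has a larger chance of touching the other list, and part of the width difference between shared and unshared regions follows from the rule itself.

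**Figure D1:**
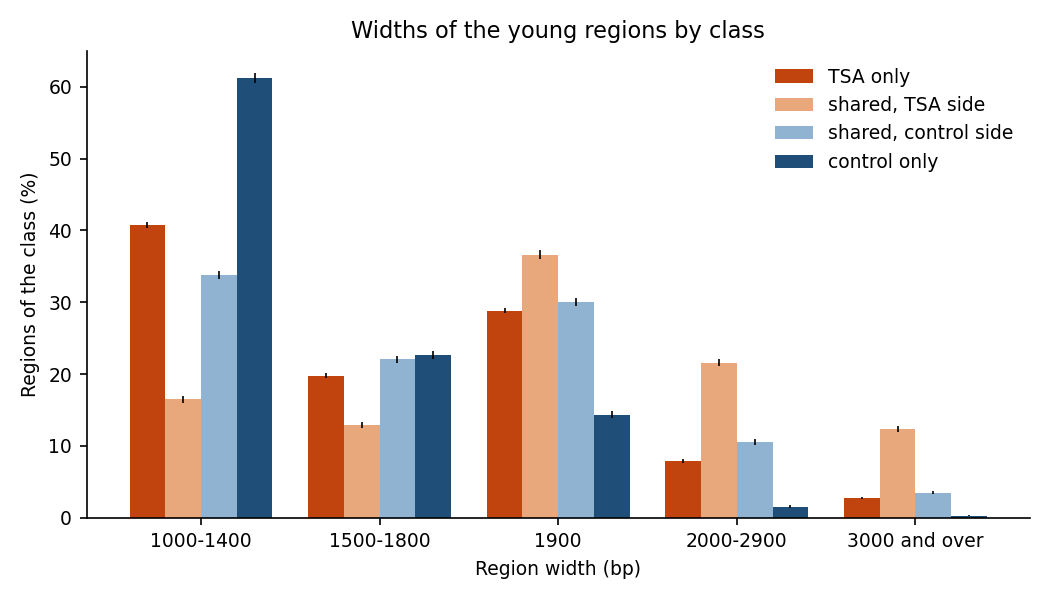
Width classes of the young regions, as percent of each class (vertical axis) by region width in bp (horizontal axis), with bars for TSA-only, shared (as called in either library) and control-only regions and exact binomial 95% intervals. Control-only regions are mostly under 1500 bp (61.2%), and shared regions on the TSA side have the largest part at 3000 bp and over (12.3%).

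The excess of TSA-only over control-only regions grew with width. Below 1500 bp there were 22655 TSA-only and 11397 control-only regions, a ratio of 1.99. From 1500 to 1800 bp the ratio was 2.61, at 1900 bp it was 6.01, and from 2000 to 2900 bp it was 15.4. At 3000 bp and over 1512 regions were TSA-only and 51 control-only, a ratio of 29.6. The TSA share of regions called in 1 young library thus went from 66.5% (66.0 to 67.0%) in the narrowest class to 96.7% (95.7 to 97.6%) in the widest. The same lists for the old mice gave no such rise, with 45.8% (45.3 to 46.2%) in the narrowest and 38.9% (36.0 to 41.9%) in the widest class. Whether the ages differ was not tested, as each has 1 library per treatment. With shared regions included, the young TSA list also held more of the wide regions. It had 26693 regions below 1500 bp against 19758 in the control, and 4532 against 911 at 3000 bp and over. The part of this in the rise of the ratio was not tested.

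**Figure D2:**
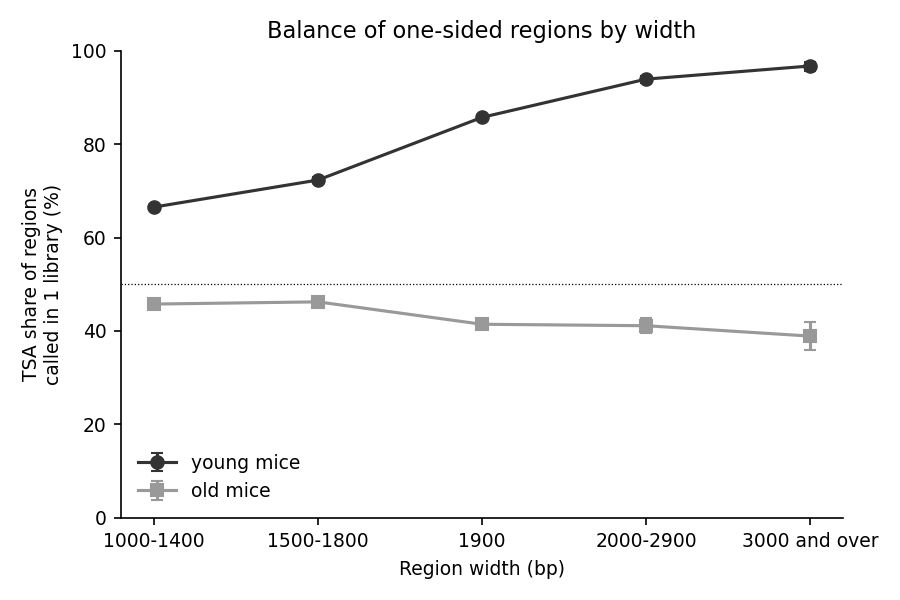
TSA share, in percent, of the regions called in 1 library of an age (vertical axis) by region width in bp (horizontal axis), for young and old mice, with exact binomial 95% intervals and a dotted line at 50%. The young values rise from 66.5 to 96.7% and the old values lie between 38.9 and 46.2%.

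Seen from each list, the widest regions were the most often shared. Of the young control regions of 3000 bp and over, 51 of 911 (5.60%, 4.20 to 7.30%) had no counterpart after TSA, against 57.7% of those under 1500 bp. Of the TSA regions of 3000 bp and over, 1512 of 4532 (33.4%, 32.0 to 34.8%) had no counterpart in the control, against 84.9% of those under 1500 bp. At 1900 bp the shares without a counterpart were 26.4% for the control and 64.1% for TSA. Nearly all wide control regions were therefore found again after TSA, whereas a large part of the wide TSA regions was not listed in the control.

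The 5 widest TSA-only regions spanned 7000 to 9100 bp, and the 5 widest control-only regions 3700 to 4400 bp. The widest of all lay on chromosome 5 from 139853001 to 139862100 and overlapped 3 regions of the old control and 1 of old TSA. The next widest, both 7300 bp, started at 124646001 and 154139801 on chromosome 4. They were called in both old libraries, as was the region of 7000 bp that spans 74398101 to 74405100 of chromosome 10. The region spanning 79904801 to 79912000 of chromosome 15 was found in old TSA but not in the old control. Among the 5 widest control-only regions, only the one on chromosome 7 from 96935601 to 96939300 was called in both old libraries. The region on chromosome 4 from 55360601 to 55365000, the widest of them at 4400 bp, was called in neither. Of the old libraries, the control alone had the regions that start at 35170401 on chromosome 4 and at 42774701 on chromosome 13, and TSA alone had the one that starts at 106926801 on chromosome 8. Over all regions of 3000 bp and over, 71.3% of TSA-only and 27.5% of control-only regions were called in both old libraries. Which genes lie at these positions was not analysed here.

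Shared regions were compared pair by pair. Of the shared TSA regions 23627 (96.5%) overlapped a single control region that in turn overlapped no other TSA region. In 58.2% of these pairs (57.5 to 58.8%) the TSA region was the wider one, in 18.9% (18.4 to 19.4%) the control region was, and in 22.9% the widths were equal. The TSA region was on average 358 bp wider, with a median difference of 200 bp and quartiles of 0 and 700 bp. In 49.3% of the pairs the control region lay wholly within a wider TSA region, and in 13.8% the reverse held. In the old mice the corresponding pairs numbered 45858 and were close to balance, with 32.7% wider after TSA, 38.8% wider in the control and a mean difference of -42.8 bp.

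The edges of paired regions often coincided. Start and end were identical in 4597 young pairs (19.5%), of which 68.8% were 1900 bp wide, and exactly 1 edge was identical in a further 39.8%. Of the 8825 pairs in which the TSA region was 1900 bp wide, the control region had the same width in 41.3% and was narrower in 51.2%. Of the 7182 pairs in which the control region was 1900 bp wide, the TSA region had that width in 50.8%, was wider in 31.3% and narrower in 17.9%. Regions divided differently by the libraries were rare. Only 439 shared TSA regions (1.79%) overlapped more than 1 control region, and 220 control regions (0.890%) more than 1 TSA region.

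The largest gain in width was found on chromosome 7, where a control region of 1500 bp from 26109701 to 26111200 lay inside a TSA region of 8400 bp from 26109501 to 26117900. On chromosome 11 a control region of 1200 bp from 119779401 to 119780600 lay inside a TSA region of 7800 bp from 119778501 to 119786300. The next gains, of 6200, 6000 and 5800 bp, lay on chromosomes 12, 12 and 4, where the TSA regions began at 109543901, 113347701 and 117325901. All 5 of these TSA regions were called in both old libraries, as were 84.8% of all shared TSA regions of 3000 bp and over. The largest losses were smaller, from 3100 down to 2600 bp. The largest was on chromosome 11, where a control region of 4100 bp from 86405101 to 86409200 corresponded to a TSA region of 1000 bp that ended at the same base. The others lay on chromosomes 3, 7, 14 and 4, with control regions of 4900, 4600, 4600 and 4000 bp against TSA regions of 1900, 1900, 1900 and 1400 bp. Of the 5 narrowed regions, 1 was called in both old libraries, 1 in the old control alone and 3 in neither. Over all shared TSA regions 59.4% were called in both and 14.8% in neither.

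The distance to the other list was larger for TSA-only than for control-only regions. The median distance from a TSA-only region to the nearest control region was 13000 bp (12800 to 13200 bp), with quartiles of 4800 and 33100 bp. From a control-only region to the nearest TSA region it was 8200 bp (8000 to 8400 bp), with quartiles of 2900 and 21600 bp. Within 1 kb of the other list lay 6.28% of TSA-only and 10.6% of control-only regions, and farther than 50 kb lay 16.2% and 9.34%. These distances were measured to lists of unequal length. When the TSA list was cut to its 43335 widest regions, which changes length and width together, the order was the opposite, with medians of 11700 bp for TSA-only and 15000 bp for control-only regions. Wide TSA-only regions lay nearer to the other list, with a median of 14800 bp (14400 to 15100 bp) below 1500 bp of width and 8400 bp (7500 to 9100 bp) at 3000 bp and over. For control-only regions the medians were 8500 bp (8100 to 8800 bp) and 5100 bp, where the interval for the 51 widest, 2700 to 11000 bp, includes the value of the narrow ones.

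The most isolated regions were all on the X chromosome, where regions were sparse. It held 3.58 TSA-only and 1.65 control-only regions per Mb, against autosomal lows of 18.2 and 6.49. The part of this in the distances was not tested. The 3 TSA-only regions farthest from any control region began at 61553201, 113951701 and 113159501, at distances of 2285200, 1781600 and 1710100 bp. They were 1100 to 1500 bp wide and were called in neither old library, but the first of them is in the authors' list of regions higher after TSA. The 3 control-only regions farthest from any TSA region began at 106660401, 59266701 and 105485501, at distances of 1064300, 990300 and 886600 bp. The second of these was called in old TSA, the third in the old control and the first in neither.

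TSA-only regions lay closer to each other than control-only regions did. Of the TSA-only regions 51.7% (51.3 to 52.1%) had another TSA-only region within 10 kb, while 19.5% of the control-only regions (18.96 to 20.10%) had another control-only region within that reach. Within 1 kb the shares were 9.34% and 2.30%, and within 50 kb 89.8% and 60.6%. Shared regions lay between them, with 40.1% on the TSA side within 10 kb. The classes differ in size, and the part of this in the clustering was not tested on its own. With the TSA list cut to its widest regions at the length of the control list, the share within 10 kb was 33.4% for TSA-only and 25.9% for control-only regions. A shared region of the same library lay within 10 kb of 30.5% of TSA-only and 24.7% of control-only regions.

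**Figure D3:**
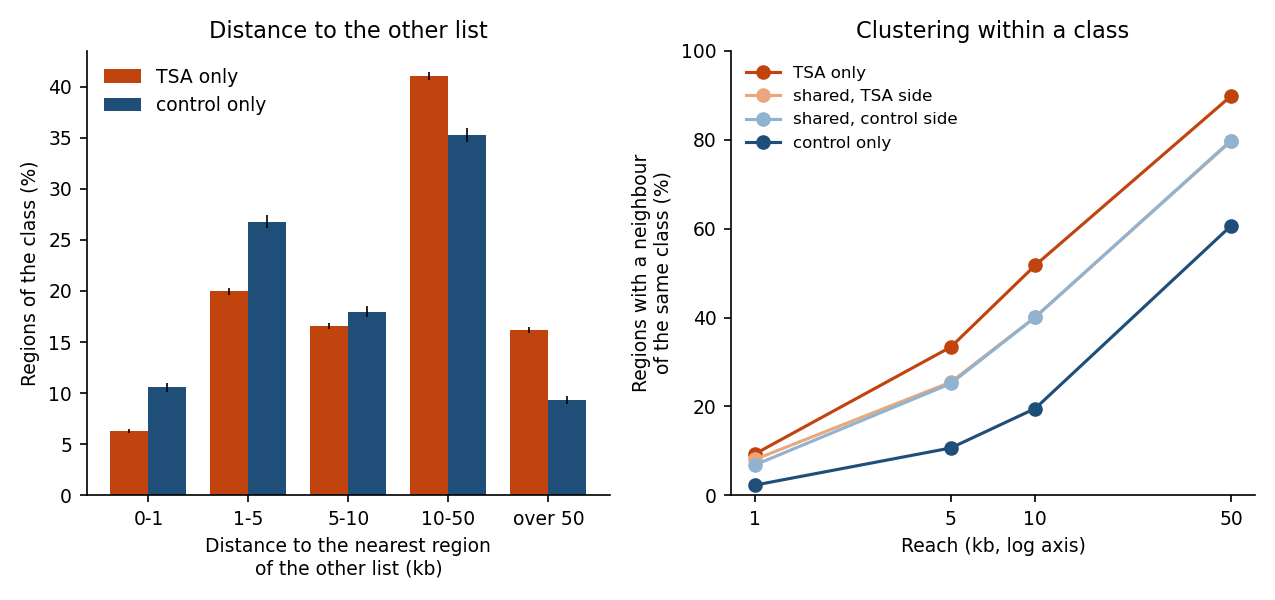
Left, percent of TSA-only and control-only regions by distance in kb to the nearest region of the other young list, with exact binomial 95% intervals. Right, percent of each class with a neighbour of the same class within 1, 5, 10 and 50 kb (log axis). Control-only regions are more frequent within 5 kb of the other list, and TSA-only regions have the most neighbours of their own class at each reach.

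Along the chromosomes the merged regions changed class often. The region after a control-only region was TSA-only in 54.7% of cases, shared in 23.3% and again control-only in 22.0% (21.4 to 22.6%), where control-only regions were 18.9% of all merged regions. The region after a TSA-only region was again TSA-only in 57.8% (57.4 to 58.2%), against 56.5% of all. The region after a shared region was again shared in 27.9% (27.3 to 28.4%), against 24.6% of all. Each class was thus followed by its own kind slightly above its overall share. Unbroken runs of 5 or more held 31.2% of the TSA-only, 3.50% of the shared and 1.41% of the control-only regions. These classes were 56.5, 24.6 and 18.9% of all merged regions, and a commoner class can form longer runs by its number alone. That part of the run lengths was not tested.

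The longest run of TSA-only regions lay on chromosome 4 from 136580801 to 136801100. It held 23 regions in 220 kb, with widths of 1000 to 4400 bp. The old control had 13 of them and old TSA 14. The next runs, of 22 regions each, began at 152276401 on chromosome 4 (262 kb long) and at 111944701 on chromosome 11 (712 kb long). Old control calls covered 15 and 12 of these regions, and old TSA calls 15 and 10. The longest control-only runs had 8, 8 and 7 regions. They began at 146885901 on chromosome 4, at 18321601 on chromosome 6 and at 90781401 on chromosome 2, and were 98.6, 444.9 and 99.2 kb long. In the old control 1, 2 and 1 of their regions were called, and in old TSA 0, 0 and 1. Over all regions of the class, 50.2% of TSA-only and 26.3% of control-only regions were called in the old control. In the run on chromosome 4 the first 5 control-only regions began at 146885901, 146890801, 146896501, 146901501 and 146905701, at steps of 4.9, 5.7, 5.0 and 4.2 kb.

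Every autosome had more TSA than control regions. The ratio ranged from 1.71 on chromosome 16 to 2.01 on chromosome 5, with a median of 1.83 over the 19 autosomes. The share of TSA regions without a control counterpart varied little, from 65.9% on chromosome 19 (63.8 to 68.0%) to 71.3% on chromosome 12 (69.7 to 72.8%). The share of control regions without a TSA counterpart varied more, from 37.9% on chromosome 19 (35.0 to 40.8%) to 49.1% on chromosome 16 (46.6 to 51.6%). Chromosomes 5, 7, 8, 11, 17 and 19 had control-only shares below 40%, and chromosomes 3, 13, 14, 16 and 18 shares above 46%. The ratio of TSA-only to control-only regions was lowest on chromosome 16, at 2.47, and highest on chromosome 5, where 4004 regions were TSA-only and 1112 control-only. Among the autosomes, chromosome 11 had the highest density of both classes, with 27.8 TSA-only and 9.03 control-only regions per Mb. Chromosome 14 had the lowest, with 18.2 and 6.49 per Mb.

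The X chromosome stood apart from the autosomes. It held 727 TSA and 412 control regions, a ratio of 1.76 that lay within the autosomal range, but the libraries coincided there less often. TSA-only regions were 80.3% of its TSA list (77.3 to 83.2%) and control-only regions 65.5% of its control list (60.7 to 70.1%), both above every autosome. Its density, 3.58 TSA-only and 1.65 control-only regions per Mb, was below every autosome, and the part of this in the shares was not tested. The X chromosome carried 1.05% of all TSA-only, 1.45% of all control-only and 0.584% of the shared TSA regions. Chromosome Y showed the reverse, with 17 of 18 TSA regions and all 17 control regions shared. The 2 regions of the mitochondrial genome in each young list were shared as well.

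At the scale of 1 Mb the larger number of regions in the longer TSA list was found in most windows. Among 2403 autosomal windows with a young region, 2257 (93.9%, 92.9 to 94.8%) held more TSA than control regions, 87 held fewer and 59 held equal numbers. A window held a median of 19 TSA-only regions (quartiles 10 and 32, highest 96) and 7 control-only regions (4 and 10, highest 24). Over the same windows the numbers of TSA and control regions had a Spearman correlation of 0.92, and those of TSA-only and control-only regions one of 0.66. These are descriptions across windows that share the libraries and the local density of cutting sites. The tenth of windows richest in a class held 25.2% of TSA-only, 20.8% of control-only and 31.3% of shared merged regions. By this measure control-only regions were the least concentrated, although 47 windows held none of them and 4 windows no TSA-only region.

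The balance of TSA-only and control-only regions changed with the density of a window. The windows were ordered by their number of old control regions, a list that the class rule did not use, and divided into 5 groups of nearly equal size. In the sparsest group, with at most 20 old control regions per window, 68.3% of the young control regions were control-only. This share was 59.7, 49.7 and 42.9% in the next groups and 31.1% in the densest group, with 57 to 144 old control regions. The TSA-only share of TSA regions changed less over the same groups, from 81.9 to 66.7%. The sparsest group held 4244 TSA and 2428 control regions in 481 windows, and the densest 34056 and 16679 in 481. A region in a dense window has a larger chance of touching the other list, and the part of this in both falls was not tested. TSA-only regions outnumbered control-only regions by 2.09 in the sparsest and by 4.37 in the densest group. For regions of 1900 bp and over this ratio was 4.46 in the sparsest and 12.2 in the densest group, and for narrower regions 1.72 and 2.91. The ratio of all TSA to all control regions, shared ones included, changed less. It was 1.75, 1.68, 1.70, 1.76 and 2.04 from the sparsest to the densest group. The densest group held 41.3% of the TSA-only, 28.3% of the control-only and 46.5% of the shared merged regions. The shares of the X chromosome lay near those of the sparsest autosomal windows.

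**Figure D4:**
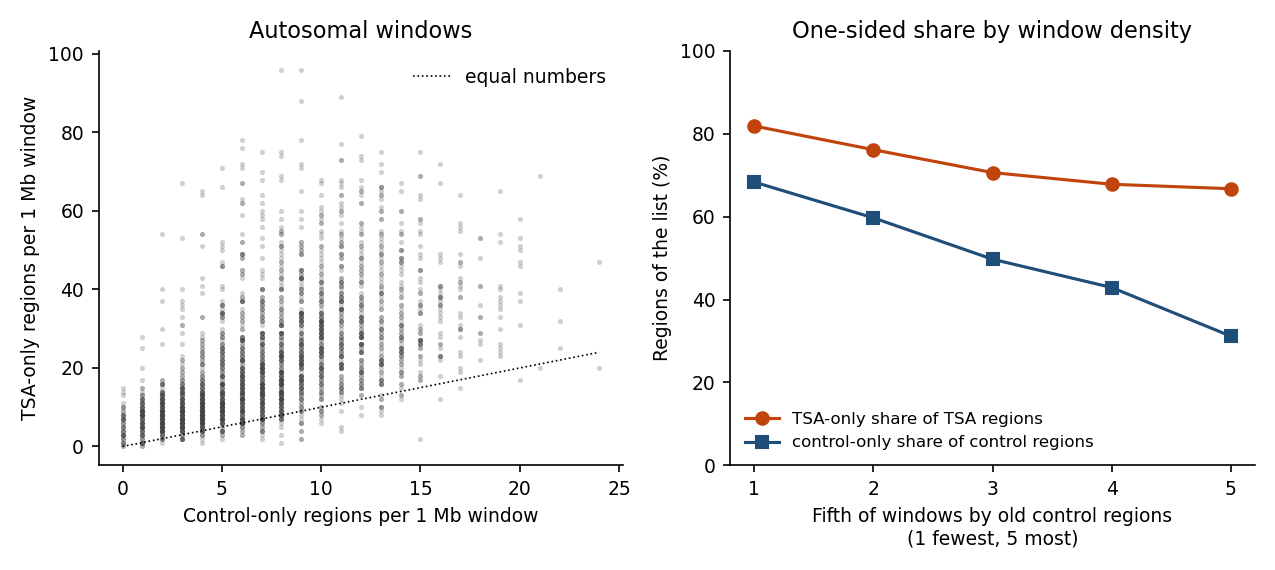
Left, TSA-only against control-only regions in each autosomal window of 1 Mb, 1 point per window, with a dotted line at equal numbers. Right, the TSA-only share of TSA regions and the control-only share of control regions, in percent, over 5 equal groups of windows ordered by their old control regions. Most points lie above the line, and the control-only share falls from 68.3 to 31.1% while the TSA-only share falls from 81.9 to 66.7%.

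The windows with the most TSA-only regions were also rich in shared regions. The window of chromosome 8 from 124 to 125 Mb held 96 TSA-only, 8 control-only and 50 shared merged regions, and that of chromosome 10 from 80 to 81 Mb held 96, 9 and 66. Windows of chromosome 4 from 153 to 154 Mb and of chromosome 5 from 36 to 37 and from 114 to 115 Mb followed with 89, 88 and 79 TSA-only regions. In the order named, TSA-only regions were 62.3, 56.1, 65.0, 68.2 and 59.8% of the merged regions in these 5 windows, against 56.5% of all merged regions. Windows in which control-only regions prevailed were few. Of the 1706 autosomal windows with at least 20 merged regions, 28 (1.64%, 1.09 to 2.36%) had more control-only than TSA-only regions. Their median number of merged regions was 28.5, against 48.0 for all such windows. The highest control-only share, 60.0%, was found on chromosome 4 from 146 to 147 Mb, with 15 control-only, 2 TSA-only and 8 shared regions. This window contains 1 of the control-only runs of 8 regions, and it held 11 old control and 14 old TSA regions. The next shares, 54.2% on chromosome 6 from 8 to 9 Mb, 51.5% on chromosome 13 from 115 to 116 Mb, 16 of 32 merged regions on chromosome 2 from 20 to 21 Mb and 13 of 26 on chromosome 14 from 23 to 24 Mb, came from windows with 10 to 15 TSA-only regions.

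The old libraries gave a readout that the classes did not use. The old control had a call at 50.2% of TSA-only regions (49.8 to 50.6%) and at 26.3% of control-only regions (25.6 to 26.9%). Old TSA had one at 49.3% (48.8 to 49.7%) and 25.4% (24.8 to 26.0%). For shared regions, on the TSA side, the old control gave 71.2% and old TSA 73.3%. Over the whole young TSA list the old control had a call at 56.6% and over the whole young control list at 51.5%, so both classes without a counterpart lay below their own list. In both old libraries were called 33.1% of TSA-only, 12.3% of control-only and 59.4% of shared TSA regions, and in neither 33.6, 60.6 and 14.8%. The 2 old libraries gave nearly the same values for a class, so TSA-only regions were found in old mice at a similar rate without and with TSA. The classes also differed in local density. The autosomal windows richest in old control regions, with 57 to 144 each, held 41.3% of autosomal TSA-only and 28.3% of autosomal control-only regions. Regions in such windows have a larger chance of touching an old region. The part of this in the difference between the classes was not tested.

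The share called in the old control rose with width in TSA-only and shared regions, and the classes also differed at equal width. A wide region has a larger chance of touching an old control region, and the part of this in the rise was not tested. The part of local density in the difference at equal width was not tested either. At 1900 bp, 60.7% of TSA-only regions (59.9 to 61.4%) and 29.1% of control-only regions (27.4 to 30.9%) were called in the old control. Below 1500 bp the shares were 36.0 and 23.9%, and at 3000 bp and over 81.3 and 43.1% (29.3 to 57.8% for the 51 control-only regions). Shared regions, as called in either library, stood above both classes at each width. The distance to the other young list moved the share of TSA-only regions in the old control little, from 50.8% within 1 kb to 49.7% beyond 50 kb. For control-only regions it went from 29.3% within 1 kb to 21.6% beyond 50 kb.

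**Figure D5:**
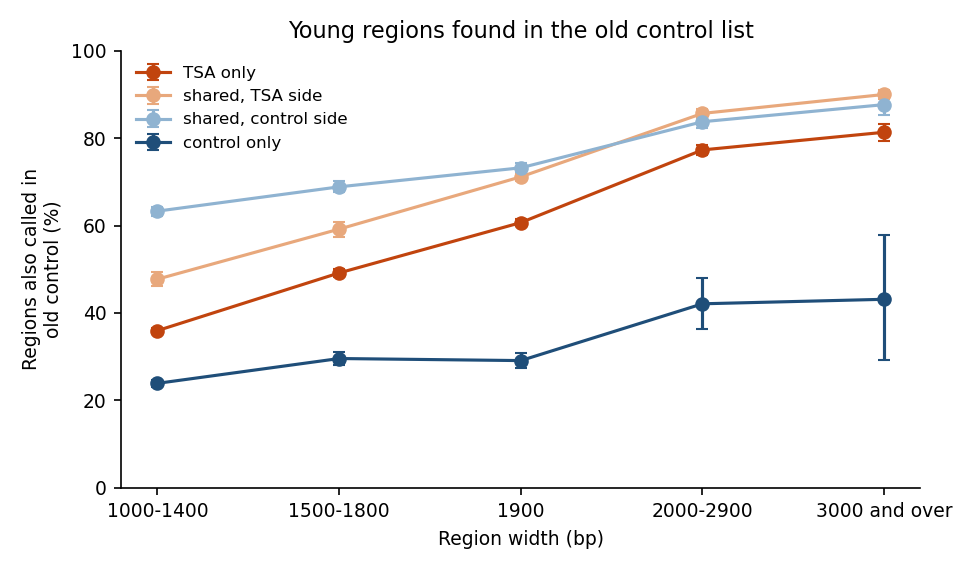
Percent of young regions that overlap an old control region (vertical axis) by region width in bp (horizontal axis), for TSA-only, shared (as called in either library) and control-only regions, with exact binomial 95% intervals. Control-only regions lie lowest at every width, and TSA-only regions rise from 36.0 to 81.3%.

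The authors also deposited a list of regions higher in either young library, made from the same libraries as the classes, so the following counts are a description. Of all young TSA regions 10.3% overlapped the list of regions higher after TSA. The share was nearly equal for TSA-only regions, with 5687 of 55629 (10.2%), and for shared regions, with 2596 of 24493 (10.6%). At equal width the share was higher for TSA-only regions, least clearly in the widest class. At 1900 bp 17.9% of TSA-only and 6.38% of shared TSA regions were in that list, and from 2000 to 2900 bp 36.2 and 20.3%. At 3000 bp and over the shares were 35.1% (32.7 to 37.6%) and 31.2% (29.5 to 32.8%), with overlapping intervals. Below 1500 bp 241 TSA-only regions (1.06%) and 4 shared regions were. Most TSA-only regions were thus not in the authors' list, and those that were had mostly widths of 1900 bp and over. Of all young control regions 1.05% overlapped the list of regions higher in the control, namely 380 control-only regions (2.04%) and 77 shared ones (0.312%). The rate was 0.921% for control-only regions under 1500 bp, 5.73% for those of 1900 bp and 9.82% for those from 2000 to 2900 bp. At 3000 bp and over it was 3.92% (0.478 to 13.5%), or 2 of 51 regions. Of the listed control-only regions 105 were under 1500 bp wide, 92 from 1500 to 1800 bp and 153 exactly 1900 bp.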

How the data were processed

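NA-seq regions of 4 libraries were deposited, 1 library per group. The build mm9 and the aligner Bowtie 0.12.7 are those named in the submitters' processing notes. The region caller and its threshold, and which first enzyme cut which library, are not known here. The deposited lists give a chromosome, a start and an end in steps of 100 bp, with no count or score, and the shortest region is 1000 bp. No regions within a young list overlapped. Starts are printed counting from 1.

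Regions were classed by an overlap of 1 bp, distances run from edge to edge on the same chromosome, and windows of 1 Mb were assigned by region centre. The functions (Python 3.11.15, numpy 2.4.6, pandas 2.3.3, scipy 1.17.1, plots with matplotlib 3.10.9) were tested on simulated data by brute force. Named were the 5 widest regions per class, the 5 pairs gaining and the 5 losing most width, the 3 most distant regions and 3 longest runs per class, and the 5 windows with most TSA-only regions or the highest control-only share (at least 20 merged regions). The mitochondrial genome was left out of the named regions. The members, width classes and rules were chosen with earlier results of these data known. No sequences or genes are given, since no mm9 genome or annotation was used here.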

Additional observations from a re-analysis of the deposited data

Results flagged for a closer look

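Regions called in 1 library of an age were mostly TSA-only in young mice (74.9%) and mostly control-only in old mice (TSA share 44.5%). Among regions of 3000 bp and over, that share came to 96.7% for young and 38.9% for old animals. Paired regions were on average 358 bp wider after TSA in young mice and -42.8 bp, that is narrower, in old mice. The direction from control to TSA was opposite at the 2 ages in these values, of which the second covers a subset of the first. The list lengths were opposite too, with 80122 TSA and 43335 control regions in young mice and 87416 and 97139 in old mice, and their part in these values was not tested. No test of that contrast was possible with 1 library per group, so the difference was not tested.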

How the results depend on the processing

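Restriction to autosomes kept all 10 results within the counting interval of their main value. In the order TSA regions not called in the control, control regions not called after TSA, and TSA share of regions called in 1 library, the values were 73.7, 51.4 and 72.6% with a reciprocal overlap of 50%, 67.3, 40.5 and 75.4% when neighbours within 500 bp counted as shared, and 76.4, 33.3 and 86.6% with regions of at least 1900 bp. With the TSA list cut to its widest regions at the length of the control list they were 57.9, 57.1 and 50.4%, where lists of equal length force a share near 50%. With regions closer than 1 kb merged the first was 68.4% and the third 73.9%. The median width difference between TSA-only and control-only regions, 300 bp, was 400 bp with reciprocal overlap and with merging, 600 bp with equal lengths and 0 bp with regions of at least 1900 bp. The median distances of TSA-only and control-only regions to the other list were 11700 and 5700 bp (reciprocal overlap), 13800 and 9200 bp (gap), 35600 and 14400 bp (at least 1900 bp), 11700 and 15000 bp (equal lengths) and 14300 and 8700 bp (merged). The shares of TSA-only and control-only regions with a neighbour of their class within 10 kb were, in the same order, 54.6 and 25.0%, 50.5 and 18.3%, 41.1 and 6.35%, 33.4 and 25.9%, and 45.6 and 17.3%. The shares called in the old control were 51.6 and 33.6% with reciprocal overlap, 68.3 and 39.2% at 1900 bp and over, 64.1 and 32.6% with equal lengths, and 50.8% for TSA-only regions with merging. TSA-only regions exceeded control-only regions in clustering and in calls in the old control under all 6 alternatives. The order of the distances was the opposite with equal lengths. In all other settings TSA-only regions were at least 72.6% of the regions called in 1 library. The setting with equal lengths kept the widest TSA regions. No alternative therefore made both the size and the width of the classes equal. The depth of the libraries is unknown and limits what an uncalled region can show.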
